A study of Rattus norvegicus with 60 samples.

Results

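The microRNAs (miRs) described here are the 43 rat miRs whose array probes lie in the Dlk1-Dio3 interval of rat chromosome 6 (build rn4, first and last probe at chr6:134141380-134425147), out of 350 rat miRs on the array. Within the interval they were taken by position alone, whether or not they were detected. The choice was made with earlier results of these data known. The 6 partner strands with probes in the same interval (names ending in an asterisk) were kept apart. Each array measured the whole retina of 1 Long Evans hooded male rat of 250 to 300 g, and the ages were not given. In the ischemia-reperfusion (IR) groups the intraocular pressure was held at 110 mmHg for 60 min through a needle in the anterior chamber of 1 eye, and the retina was taken after the pressure was released, either at once (0 h), after 2 h, after 24 h, after 48 h or after 7d. Sham control rats received the same anesthesia, eye drops and surgery without the rise in pressure, and their retinas were taken at the same 5 time points. There were 6 rats in each of the 10 groups, 60 arrays in all, and no genetic change or drug distinguished the groups.

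The interval belongs to the imprinted Dlk1-Dio3 domain. Its protein-coding genes are expressed from the paternal chromosome, whereas its noncoding RNAs, among them Meg3, the antisense transcript of Rtl1 and the long host transcript Mirg, are expressed from the maternal chromosome. The miRs are cut from those maternal transcripts, so that many of them derive from shared precursors, and they are best known from brain and placenta. In neurons the transcription factor Mef2 drives the group from miR-379 to miR-410 with activity, and miR-134 and miR-329 of that group take part in the outgrowth of dendrites.

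On rn4 the members formed 2 blocks. The first held 12 members, from miR-770 to miR-370 (chr6:134141380-134210263, 68.9 kb). It includes the miRs antisense to Rtl1, namely miR-127, miR-136, miR-431, miR-433 and miR-434. The second block began 178.0 kb further on and held 31 members, from miR-379 to miR-410 (chr6:134388218-134425147, 36.9 kb). All of these probes were antisense to the plus strand.

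Mature sequences from RefSeq (build GRCr8) are given for the 11 members on which the results turn, with the seed (bases 2 to 8, which pair with target mRNAs) in capitals. The list starts with the 2 miRs that were higher after IR and goes on with the 6 that were lower, then 2 more that the study named and 1 detected on every array, each set in chromosome order.
miR-493: uGAAGGUCuacugugugccag
miR-539: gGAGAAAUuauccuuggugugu
miR-341: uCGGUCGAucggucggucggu
miR-379: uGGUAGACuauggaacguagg
miR-323: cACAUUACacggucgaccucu
miR-494: uGAAACAUacacgggaaaccucu
miR-495: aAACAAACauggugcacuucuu
miR-376a: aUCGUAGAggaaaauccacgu
miR-329: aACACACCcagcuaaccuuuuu
miR-410: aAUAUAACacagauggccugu
miR-434: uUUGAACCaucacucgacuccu
A RefSeq sequence was assigned to 40 of the 43 members, and the 40 had 40 different seeds, so that no 2 of them shared one. Of the 11 printed, the seed of miR-329 is also that of rat miR-362-3p, and the seed of miR-410 that of miR-344b-1-3p, both encoded elsewhere. Array names without an arm were matched by the same name in RefSeq (miR-341, miR-431 and miR-495), through the partner strand on the array or through the position of the probe relative to other members, and for miR-493 through 1 adjacent member alone. The family of miR-376a shows how close members can be. Over the 21 bases of each, miR-376a differs from miR-376b-3p at 3 positions, 1 of them in the seed, and from miR-376c at 4 positions, 2 of them in the seed:
miR-376a: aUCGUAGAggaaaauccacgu
miR-376b-3p: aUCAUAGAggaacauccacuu
miR-376c: aACAUAGAggaaauuucacgu
Transcripts of this family are known targets of A-to-I RNA editing, which the arrays do not show. Probes of such close sequences could share signal.

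MiRs typical of retina were present on every array. The neural miRs miR-124, miR-9 and miR-181a and the photoreceptor miRs miR-183, miR-96 and miR-182 were detected on all 60 arrays. The IR arrays of the later time points were dim. Array brightness (log2 of the 75th percentile of the signals of the 57 miRs detected on all arrays, centered over the 60 arrays) had a median of -1.29 in the IR group and 0.94 in the sham control group at 24 h, -0.40 and 0.82 at 48 h, and -1.35 and 1.07 at 7d. At 0 h the medians were -0.52 and 0.74, whereas at 2 h they were 0.23 and 0.22. At 24 h and 7d every IR array was dimmer than every sham control array. A fit with brightness as a covariate does not separate brightness from treatment at those times. The number of detected miRs ranged from 59 to 232 of 350 over the arrays. In a bulk sample, fewer cells that make a miR and less of the miR per cell cannot be told apart. No slide held both treatments of 1 time point, so slide and treatment cannot be told apart within a time point. Fitting slide as a random effect takes slide effects to be unrelated to treatment and does not separate the 2. Each of the 3 scans was balanced, with as many IR as sham control arrays. One sham control array at 48 h (replicate 1) stood furthest from its group, with a median SD of log2 differences to the others of 0.979 against a median of 0.478 over all arrays, and differences at 48 h that are described in full are given with and without it.

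Of the 43 members, 30 had a detection flag on 1 or more arrays and 13 had none, which is 69.8% detected and close to the 69.1% of the other 307 rat miRs. The share detected on all 60 arrays was 2.33%, miR-434 alone, against 18.2% of the others (56 of 307). Detection here is the flag that the scanner software sets for each miR on each array. After miR-434 came miR-127, miR-154 and miR-487b with 59 arrays each, miR-300-3p with 57, miR-539 with 53 and miR-369-5p with 50. The 13 members with no detection were miR-770, miR-673, miR-540 and miR-370 in the first block, and miR-380, miR-543, miR-376c, miR-300-5p, miR-381, miR-541, miR-409-5p, miR-412 and miR-369-3p in the second.

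**Figure D1:**
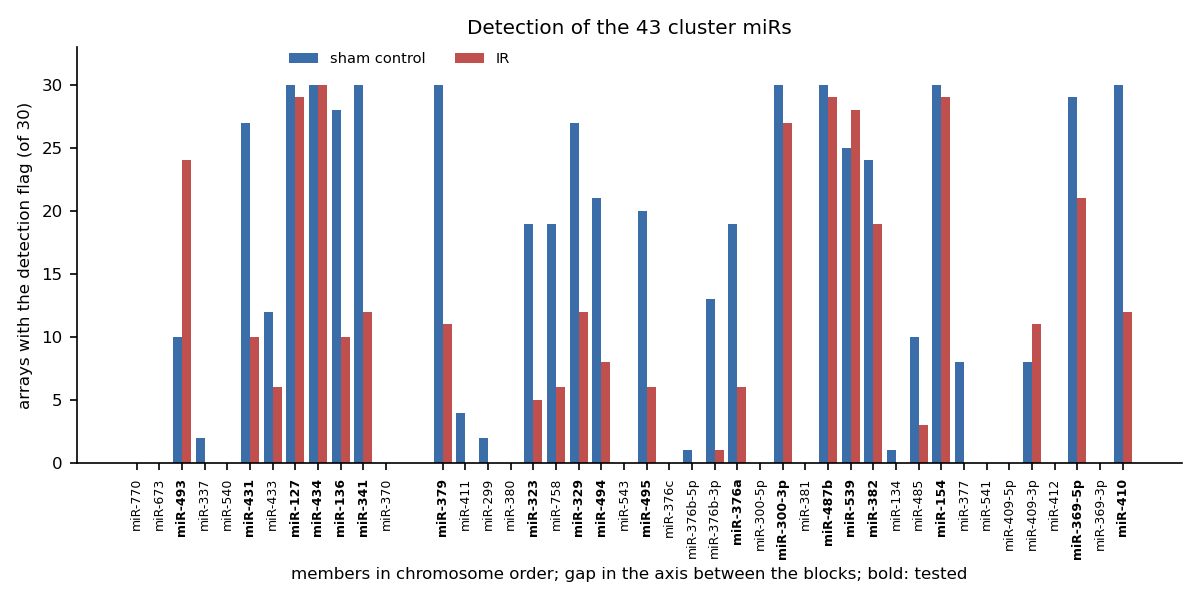
Number of arrays with the detection flag (y axis, of 30 per treatment) for each of the 43 members in chromosome order (x axis), sham control in blue and IR in red. In 26 of the 30 detected members the sham control bar is the taller, miR-434 has 30 of 30 in both, and miR-493, miR-539 and miR-409-3p have more IR arrays.

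More sham control than IR arrays detected 26 of the 30 members (86.7%), and 142 of the 212 other detected miRs (67.0%). Numbers were equal for 1 member and for 59 of the others, among them the 56 detected on all 60 arrays, which cannot differ. More IR arrays detected 3 members and 11 of the others, so the 2 percentages do not set the cluster apart. The 3 members with more IR arrays were miR-493 (24 IR and 10 sham control arrays), miR-539 (28 and 25) and miR-409-3p (11 and 8). At 24 h and 7d, 8 of the tested members, miR-136, miR-323, miR-376a, miR-379, miR-410, miR-431, miR-494 and miR-495, were detected on no IR array at either time, and on all 6 sham control arrays at 7d. All 8 entered the test through sham control groups alone, miR-323, miR-376a, miR-494 and miR-495 through that at 7d alone. The detection of these 4 on all 6 sham control arrays at 7d was the condition for testing them. The count describes these members only. Per array, the IR group at 7d had between 1 and 11 members detected (median 7), and the sham control group between 19 and 29 (median 20). At 24 h the IR arrays had 5 to 11 (median 8) and the sham control arrays 12 to 28 (median 17.5), and at 48 h 8 to 22 (median 9.5) and 13 to 25 (median 19.5). The ranges overlapped at 48 h, and also at 0 h (7 to 24 against 12 to 27) and at 2 h (7 to 23 against 10 to 25). Fewer members were detected on the dimmer arrays, and the part that brightness has in the counts was not tested.

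**Figure D2:**
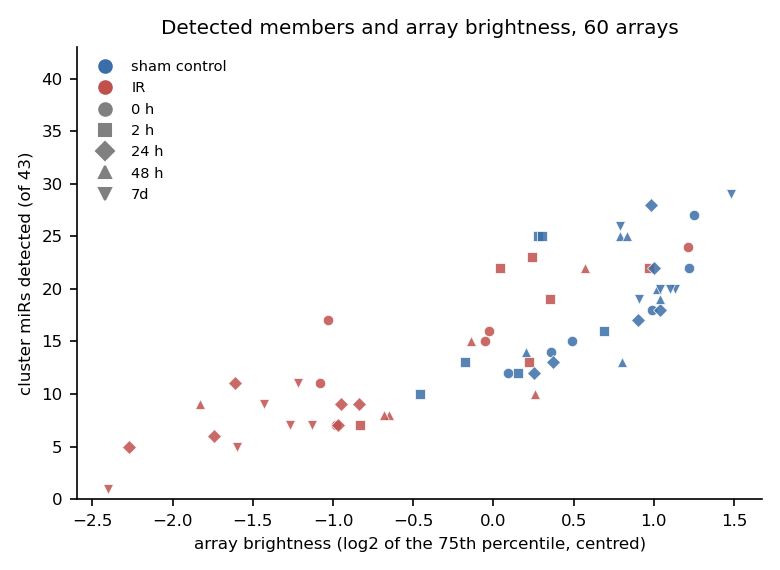
Members detected per array (y axis, of 43) against array brightness (x axis, log2, centered) for the 60 arrays, IR in red and sham control in blue, with 1 symbol per time point. IR arrays at 24 h and 7d lie at a brightness of -0.84 or less with 1 to 11 members detected, and all sham control arrays at these times lie at 0.25 or more with 12 to 29.

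Signals were scaled to equal brightness, raised to a floor of 7.36 signal units (2.88 on the log2 scale, the median limit of detection) and compared on the log2 scale. The test covered the 159 miRs that every array of some group had detected, and 19 of the 43 members passed this filter. Of these, 7 passed through both treatments, 11 through sham control groups alone and miR-493 through an IR group alone. Those 12 passed only through the treatment in which they were detected, so counts over the 19 are a description and not evidence about the cluster. MiR-323, miR-376a, miR-494 and miR-495 passed through the sham control group at 7d alone. Their differences at 7d are thus taken against the group that let them in. A miR was called where IR and sham control differed at least 2-fold with an adjusted p of at most 0.05.

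In all, 8 members were called at 1 or more time points. MiR-493 and miR-539 were higher after IR, and miR-379, miR-376a, miR-495, miR-323, miR-341 and miR-494 were lower. At 0 h 2 of the 19 were called (10.5%, against 6.92% of all 159), both higher (6.29% of all 159 were called higher and 0.629% lower), and at 2 h 1 was called, also higher (5.26%, against 5.03%). At 24 h 5 were called (26.3%, against 18.2%), 2 higher and 3 lower, beside 11.9% higher and 6.29% lower over all 159. At 48 h 4 were called (21.1%, against 13.8%), 2 in each direction, beside 10.1% higher and 3.77% lower. At 7d 8 were called (42.1%, against 18.2%), 2 higher and 6 lower, beside 7.55% higher and 10.7% lower. The median log2 difference of the 19 members was -0.01, -0.04, -0.27, -0.38 and -0.60 at the 5 time points in order, beside 0.02, -0.01, -0.13, -0.15 and -0.15 over all 159.

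**Figure D3:**
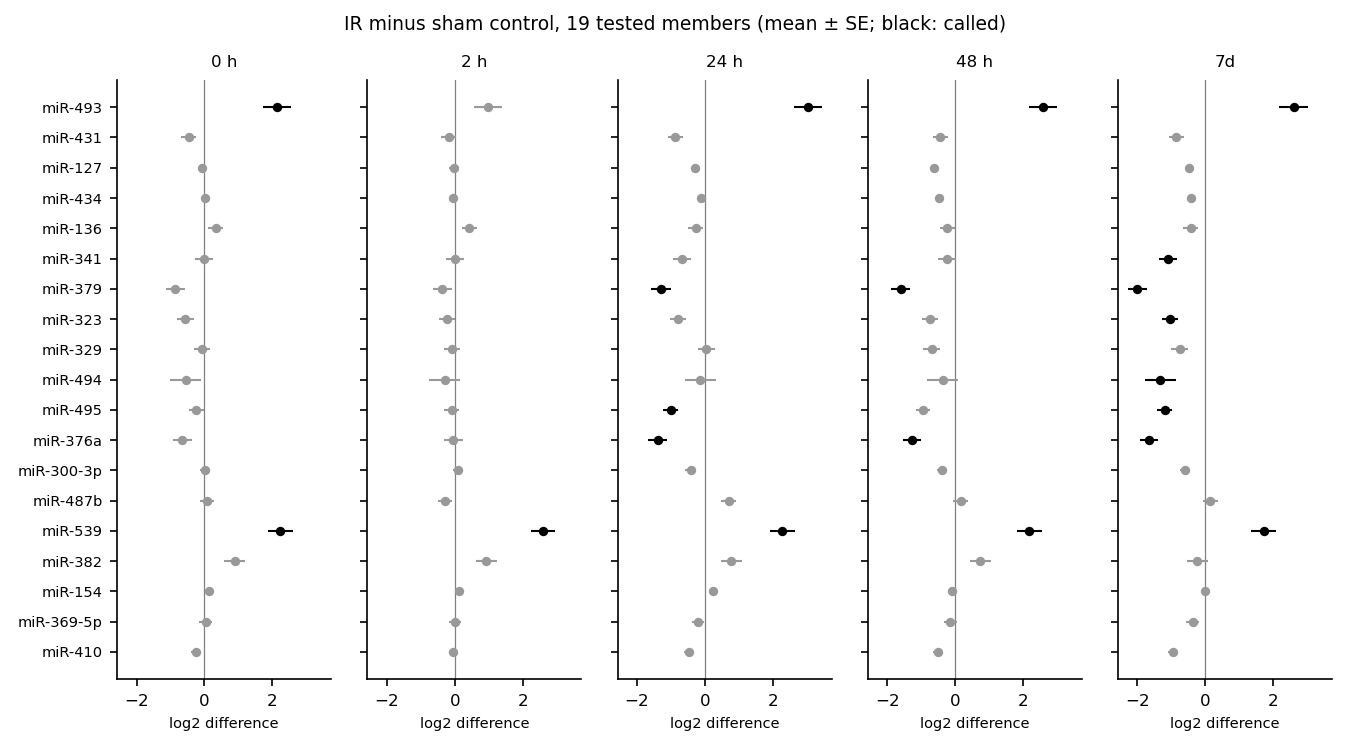
Difference of IR minus sham control on the log2 scale (x axis, mean and standard error, 6 arrays against 6) for the 19 tested members in chromosome order (y axis), 1 panel per time point, with called members in black. MiR-493 and miR-539 stand furthest to the right at every time, with miR-493 not called at 2 h, and miR-379 and miR-376a lie to the left and are called from 24 h on.

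MiR-539 of the second block was higher in the IR group at all 5 time points, and the lowest IR array exceeded the highest sham control array at each of them. At 0 h its log2 signal was 6.42 to 7.88 in the IR group (median 7.06) and 2.88 to 6.32 in the sham control group (median 4.90). The difference was 2.23 ± 0.366 (SE), or 4.69-fold, with an adjusted p of 1.12e-05. At 2 h, when the median brightness of the groups was alike, the IR arrays ranged from 6.00 to 8.41 (median 7.55) and the sham control arrays from 3.74 to 5.36 (median 4.70). This was the largest of its differences, 2.60 ± 0.366 or 6.05-fold (adjusted p 5.62e-07), and miR-539 was the only member called at this time.

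At 24 h the values of miR-539 were tight, 6.80 to 7.49 (median 7.26) after IR and 4.77 to 5.47 (median 4.87) in sham control, a difference of 2.28 ± 0.366 or 4.86-fold (adjusted p 1.19e-06). At 48 h they were 6.98 to 8.27 (median 7.54) and 4.71 to 6.94 (median 5.23), 4.57-fold apart (log2 difference 2.19 ± 0.366, adjusted p 3.55e-06). The sham control value of 6.94 came from replicate 1, and without that array the log2 difference was 2.50. At 7d the values were 6.22 to 6.84 (median 6.58) and 4.39 to 5.31 (median 4.91), a difference of 1.72 ± 0.366 or 3.29-fold (adjusted p 9.24e-05). The medians of the 5 sham control groups lay between 4.70 and 5.23. When array brightness was added as a covariate, the differences were 2.34, 2.59, 2.50, 2.32 and 1.98 in time order, and all 5 remained called. At 24 h and 7d the brightness of the groups did not overlap, so these fits do not separate it from treatment there. Within each of the 3 scans the differences of miR-539 were positive at every time point, between 1.42 and 3.28. With slide as a random block, which does not separate slide from treatment, all 5 were called. The unscaled signals were close at 24 h (medians of 47.4 signal units after IR and 45.9 in sham control) and lower after IR at 7d (30.9 and 47.7), so that at those times the rise is one relative to the other miRs on the array. Without scaling the log2 difference was 0.13 at 24 h, 1.00 at 48 h and -0.86 at 7d, none of them called. With normexp on the mean signal in place of the scanner's background correction, the call at 2 h was lost (0.87, adjusted p 0.132) and the other 4 were kept. That correction also turned all 11 called falls of members to rises, so the calls it kept say little. By the two-sided exact permutation test, the adjusted p at 2 h was 0.0688. With the highest detection limit of any array as the floor, all 5 were lost (differences of 0.02 to 0.84). That floor is 6.75 on the log2 scale, above every sham control value but the 6.94 at 48 h. The loss under it therefore says little about the rises.

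MiR-493 of the first block, for which the arm is less sure, was called higher at every time but 2 h. At 0 h its log2 signal was 3.60 to 7.21 after IR (median 6.01) and 2.88 to 4.75 in sham control (median 3.76), a difference of 2.13 ± 0.415 or 4.36-fold (adjusted p 0.000234), with 5 of the 6 IR arrays above every sham control array. At 2 h the ranges were 3.92 to 5.72 and 2.88 to 4.91, and the difference of 0.99 ± 0.415 was not called (adjusted p 0.232). At 24 h the groups were far apart, 6.54 to 7.39 (median 6.78) against 2.88 to 4.93 (median 3.75), and the difference was 3.03 ± 0.415 or 8.19-fold (adjusted p 6.22e-08), over a sham control group in which 2 of the 6 arrays detected it. At 48 h they were 4.31 to 7.69 and 2.94 to 4.16 (6.02-fold, adjusted p 2.17e-06, and 2.52 on the log2 scale without sham control replicate 1), and at 7d 5.60 to 6.85 and 2.89 to 4.38 (6.08-fold, adjusted p 7.75e-07). The groups did not overlap at the last 3 times. In the sham control groups miR-493 was detected on only 1 to 3 arrays of 6, so its sham control level is poorly measured. With brightness as a covariate the differences fell to 1.40 at 0 h, 1.57 at 24 h and 1.77 at 48 h, still called, and to 0.84 at 7d, no longer called (adjusted p 0.32). The unscaled medians at 7d were 30.7 signal units after IR and 24.3 in sham control. Without scaling the calls at 24 h (0.89) and 7d (0.02) were lost, and with the highest detection limit as the floor all 4 were (0.02 to 0.16). That floor of 6.75 lies above every sham control value of miR-493, so the loss of the 4 calls under it says little. Normexp kept all 4 (1.45 to 1.96), but it also turned all 11 called falls of members to rises, so a rise kept under it says little. By the exact permutation test, the adjusted p at 0 h was 0.0906.

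**Figure D4:**
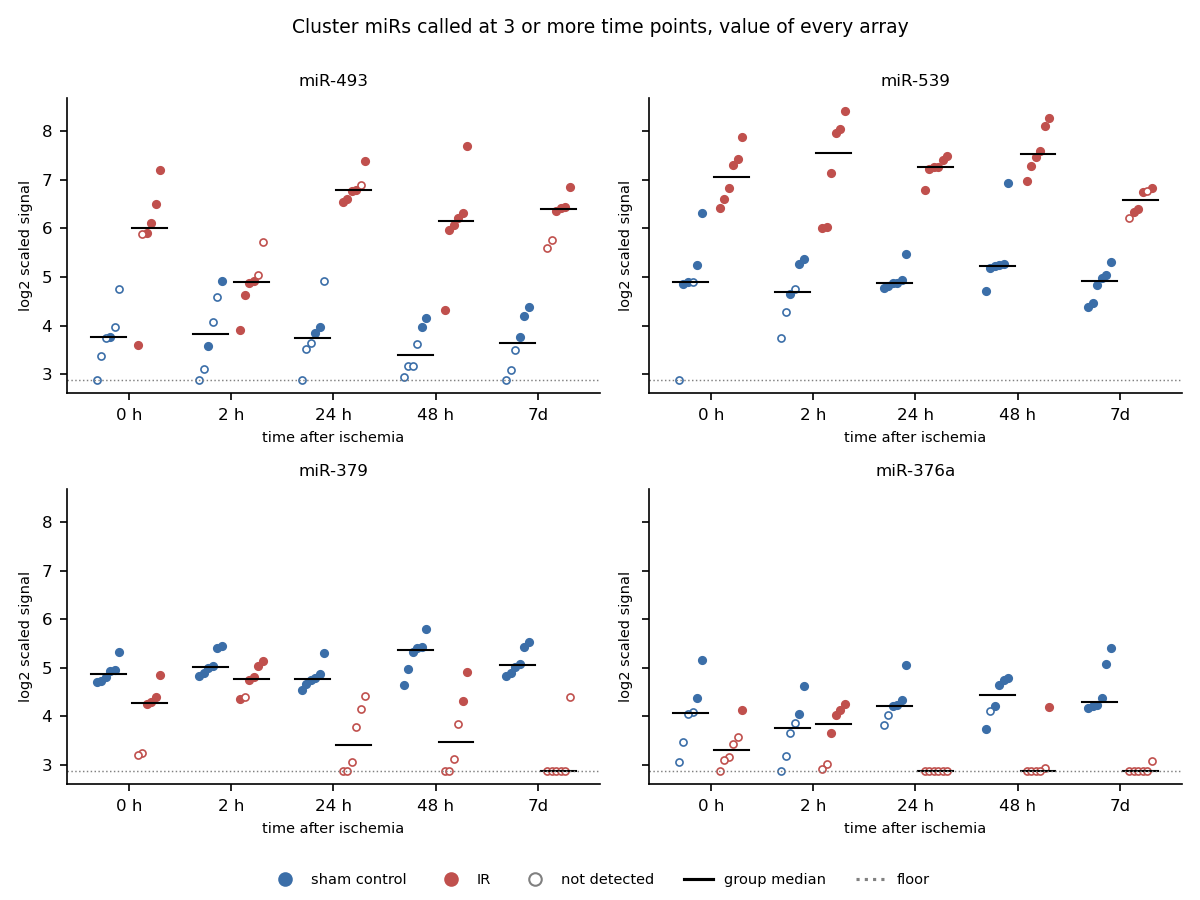
Log2 scaled signal (y axis) of the 4 members called at 3 or more time points, by time after ischemia (x axis), with 1 point per array, sham control in blue, IR in red, open points not detected, the group median as a line and the floor of 2.88 dotted. All IR points of miR-539 lie above the sham control points at each time, all 6 IR points of miR-376a lie on the floor at 24 h, and 5 of the 6 IR points of miR-379 do at 7d.

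MiRs that mark other tissues were measured beside these rises. Of the 3 muscle miRs, miR-206 was detected on 57 arrays, miR-1 on 11 and miR-133a on none. The summed log2 signal of the 3 was 7.32 to 8.86 after IR and 4.47 to 7.62 in sham control at 0 h, 6.65 to 9.35 and 5.51 to 6.49 at 2 h, 7.43 to 8.40 and 5.93 to 6.48 at 24 h, 7.96 to 9.55 and 6.07 to 8.07 at 48 h, and 7.00 to 7.67 and 5.89 to 6.55 at 7d. Most of this was miR-206, which was called higher after IR at all 5 times (log2 differences of 2.04, 2.33, 1.91, 1.96 and 1.34), as was miR-539. Of the 3 leukocyte miRs, miR-142-3p and miR-142-5p were detected on no array and miR-223 on 16. Their summed signal at 7d was 5.59 to 6.85 after IR and 4.47 to 5.08 in sham control. At 24 h it was 5.45 to 7.14 and 4.47 to 5.07. MiR-223 was detected on as many IR as sham control arrays, 1 in each group at 24 h and 2 at 7d. Its unscaled medians at 7d were 13.2 signal units after IR and 11.6 in sham control. On most of these arrays the summed signals thus compare values below detection, and no leukocyte rise is read from them. The red blood cell miRs miR-451 and miR-144 were detected on 1 array and on none. The part of other tissues in the values of miR-493 and miR-539 was not tested.

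The 6 members called lower were mostly below detection in the IR groups, and the dim arrays limit what can be said of the size of the fall. With another background correction (normexp on the mean signal, with an offset of 50) all 11 called falls turned to rises between 0.93 and 1.53 on the log2 scale, and the cause was not tested. The offset adds 50 units to every spot before arrays are brought to equal brightness. Weak signals on dim arrays can thereby be lifted, so these rises do not decide the direction. With the mean log2 processed signal over probes in place of the total signal, 5 of the 11 falls stayed called and 6 were lost. MiR-379, the first miR of the second block, was detected on all 30 sham control arrays. At 0 h it was 3.20 to 4.84 after IR (median 4.28) and 4.70 to 5.32 in sham control (median 4.87), a difference of -0.86 ± 0.286 that passed the adjusted p (0.0343) but was under 2-fold. At 2 h it was 4.35 to 5.14 and 4.83 to 5.44, and the difference of -0.36 did not pass (adjusted p 0.665). At 24 h it was detected on no IR array, with measured means of 3.53 after IR and 4.82 in sham control (adjusted p 0.00016). At 7d this was again so, with 5 of the 6 IR arrays at the floor and means of 3.13 and 5.13 (adjusted p 1.04e-07). With the mean log2 processed signal neither call was kept (-0.43 with an adjusted p of 0.126 at 24 h, and -0.83 with 0.00464 at 7d). At both times the sham control mean lay below the limit of detection of the dim IR arrays (a bound of -0.10 and -0.05 on the log2 scale), so no fold can be given.

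At 48 h miR-379 was detected on 2 IR arrays. The values were 2.88 to 4.90 after IR (median 3.48) and 4.64 to 5.80 in sham control (median 5.36), with 5 of the 6 IR arrays below every sham control array, and the difference was -1.60 ± 0.286 or 3.04-fold (adjusted p 8.07e-06). It was -1.49 without sham control replicate 1, and between -1.67 and -1.52 within the 3 scans. With brightness as a covariate it was -1.11 and still called (adjusted p 0.00178). Of the 11 called falls this was the only one still called with brightness as a covariate.

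MiR-376a was called lower at the same 3 times. At 0 h and 2 h its groups overlapped, with medians of 3.30 after IR and 4.07 in sham control and then of 3.84 and 3.76. At 24 h all 6 IR arrays lay at the floor, whereas the sham control arrays ranged from 3.82 to 5.05 (adjusted p 3.9e-05). At 48 h 1 IR array detected it, at 4.18, and the groups of 2.88 to 4.18 and 3.75 to 4.78 differed by -1.27 ± 0.276 (2.40-fold, adjusted p 0.000133). At 7d no IR array detected it, and the values were 2.88 to 3.08 and 4.17 to 5.40 (adjusted p 1.44e-06). At 48 h the difference was -1.18 without sham control replicate 1, and with brightness as a covariate -0.77 (adjusted p 0.0247), under 2-fold.

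MiR-495, which the study named, was called lower at 24 h and 7d, at both of which no IR array detected it. The measured means were 3.19 after IR and 4.20 in sham control at 24 h (adjusted p 0.000112), and 3.15 and 4.35 at 7d (adjusted p 7.21e-06). The call at 24 h was lost when any of 6 of the 12 arrays was left out, IR replicate 1, 2, 3 or 6 or sham control replicate 2 or 6, with log2 differences between -0.98 and -0.95. With the mean log2 processed signal both calls were lost (-0.47 at 24 h and -0.71 at 7d). At 48 h its difference of -0.95 (adjusted p 0.000242) was just under 2-fold, and it was called without sham control replicate 1 (-1.16, adjusted p 9.21e-06), with scaling to the 75th percentile over all miRs (-1.04), with the mean log2 processed signal (-1.07) and in the deposited log2 table (-1.24). At 0 h and 2 h the medians of 3.82 and 4.01 after IR and 4.01 and 3.96 in sham control were close.

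MiR-323, miR-341 and miR-494 were called lower at 7d alone. MiR-323 was at the floor on all 6 IR arrays and at 3.57 to 4.35 on the sham control arrays (adjusted p 0.000198), and its call was lost without sham control replicate 5 (-0.97) or 6 (-0.98), and with the mean log2 processed signal (-0.74). MiR-494 was detected on no IR array, with values of 2.88 to 4.24 and 4.29 to 5.31 (adjusted p 0.0104). MiR-341, a member of the first block, was detected on 1 IR array at 7d, and its values were 2.88 to 5.25 after IR (median 3.55) and 4.54 to 5.31 in sham control (median 4.86). Its difference was -1.11 ± 0.264 or 2.16-fold (adjusted p 0.000385), and the call was lost without IR replicate 1 or 4 (-0.92 each), with the mean log2 processed signal (-0.90) and by the exact permutation test (adjusted p 0.054). For miR-323, miR-494 and miR-495 at 7d the bound on the fold was under 1, as for miR-379 and miR-376a, so that no fold is given.

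MiR-410 and miR-329, also named by the study, were not called at any time with the scaling and floor above, and at 7d this depended on the processing. MiR-410 closes the second block and was detected on all 30 sham control arrays, where it varied little, from 5.60 to 5.97 at 7d (median 5.72). On the IR arrays at 7d it was 4.36 to 5.18 (median 4.83) and was detected on none, and the difference from sham control had an adjusted p of 1.04e-07. The sham control level was at least 1.11-fold higher than the limit of the IR arrays, and at 24 h at least 1.16-fold (adjusted p 0.00301). At 48 h the groups differed by -0.51 ± 0.136 (1.43-fold, adjusted p 0.00132), and by the same -0.51 without sham control replicate 1, with miR-410 detected on 2 IR arrays. At 7d the measured means were 4.78 and 5.74, and the difference passed the 2-fold threshold without IR replicate 5 (-1.04) or 6 (-1.02). MiR-329 was 2.88 to 4.73 after IR and 4.54 to 4.85 in sham control at 7d, where no IR array detected it (adjusted p 0.00715), and its medians at 24 h were 4.84 and 4.70 (adjusted p 0.882). The difference of miR-329 at 48 h was -0.69 ± 0.246 (adjusted p 0.0182), and -0.86 without sham control replicate 1. At 7d both were called lower in the deposited log2 table (-1.21 for miR-410 and -1.17 for miR-329) and with quantile normalization (-1.35 and -1.23). MiR-410 was also called with the percentile over all miRs (-1.16) and the mean log2 processed signal (-1.09). The differences with brightness as a covariate were -0.57 (adjusted p 0.0307) and -0.33 (adjusted p 0.568). With normexp both turned to rises, of 1.10 for miR-410 and 1.48 for miR-329.

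The members detected on nearly every array gave small differences, measured on both sides. MiR-434, antisense to Rtl1 and detected on all 60 arrays, was 7.31 to 7.88 after IR and 7.52 to 7.70 in sham control at 0 h (medians 7.66 and 7.64), and its medians at 2 h were 7.65 and 7.69. At 24 h they were 7.49 and 7.65 (difference -0.12 ± 0.0876, adjusted p 0.242). At 48 h it was 6.97 to 7.41 after IR and 7.20 to 7.89 in sham control, a difference of -0.47 ± 0.0876 or 1.38-fold (adjusted p 1.68e-05), and -0.56 without sham control replicate 1. At 7d it was 7.05 to 7.62 and 7.52 to 7.79, a difference of -0.42 ± 0.0876 or 1.34-fold (adjusted p 6.24e-05). With brightness as a covariate these 2 differences were -0.44 and -0.37, with adjusted p of 0.00034 and 0.0413. With normexp they turned to 0.22 and 0.46.

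MiR-127, also antisense to Rtl1, was lower by 1.53-fold at 48 h (-0.62 ± 0.124, adjusted p 4.63e-05) and by 1.39-fold at 7d (-0.47 ± 0.124, adjusted p 0.00113). At 48 h the values were 6.86 to 7.38 after IR and 7.33 to 8.66 in sham control, where 8.66 was that of replicate 1, and without that array the difference was -0.42. At 7d they were 6.53 to 7.20 and 7.29 to 7.49, with no overlap. At 0 h and 2 h its differences were -0.06 and -0.03, with adjusted p of 0.85 and 0.987. The difference at 24 h was -0.28 (adjusted p 0.0498). With brightness as a covariate the difference at 48 h was -0.57 (adjusted p 0.00116) and that at 7d -0.36 (adjusted p 0.199). With normexp these differences too turned, to 0.19 and 0.56.

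Of the other well detected members, miR-300-3p was 4.79 to 5.89 after IR and 6.04 to 6.30 in sham control at 7d, 1.52-fold lower (adjusted p 0.000781). Its differences at 24 h (-0.42, adjusted p 0.0187) and 48 h (-0.38, adjusted p 0.0375) also passed. Without sham control replicate 1 that at 48 h was -0.24 (adjusted p 0.159). With brightness as a covariate its difference at 7d was -0.19 (adjusted p 0.568), and with normexp it turned to 1.10. MiR-487b was the reverse at 24 h, with 6.49 to 7.53 after IR and 6.10 to 6.64 in sham control, 1.63-fold higher (adjusted p 0.00473), and it did not pass at the other 4 times. It no longer passed at 24 h with brightness as a covariate (0.72, adjusted p 0.0818), the percentile over all miRs (0.39, adjusted p 0.0881), quantile normalization (0.39, adjusted p 0.281) or in the deposited log2 table (0.35, adjusted p 0.15), and without scaling it was called lower (-1.45). MiR-154 and miR-369-5p passed the adjusted p at no time, with differences between -0.09 and 0.23 and between -0.37 and 0.04.

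**Figure D5:**
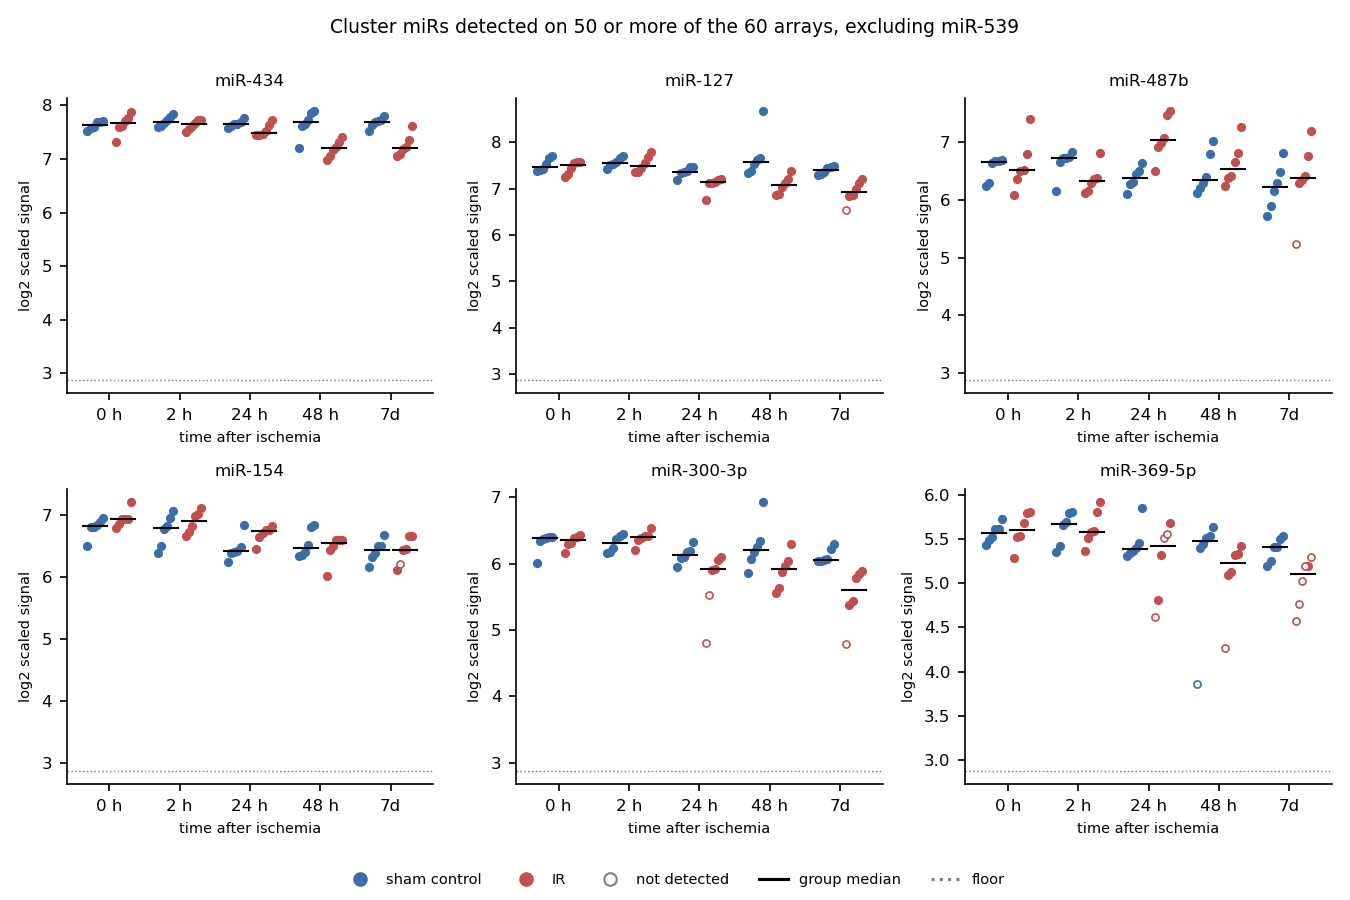
Log2 scaled signal (y axis) of the 6 members other than miR-539 detected on 50 or more arrays, by time after ischemia (x axis), with 1 point per array and symbols as in the plot of the called members. MiR-434 and miR-127 sit lower after IR at 48 h and 7d and miR-487b higher at 24 h, all by less than 2-fold.

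The last 3 tested members fell between these classes. MiR-382 of the second block was higher by 1.86-fold at 0 h (adjusted p 0.0425), 1.90-fold at 2 h (0.0490), 1.71-fold at 24 h (0.0284) and 1.67-fold at 48 h (0.0395), each time with overlapping groups, and its difference at 7d was -0.24 (adjusted p 0.502). Without sham control replicate 1 the difference at 48 h was 0.90. When brightness was a covariate the differences were 1.25 at 0 h, 1.49 at 24 h and 1.14 at 48 h, over 2-fold and called. With the percentile over all miRs these did not pass (0.57, 0.46 and 0.59, adjusted p 0.0635, 0.112 and 0.0532), nor did they in the deposited log2 table (0.58, 0.42 and 0.60), with quantile normalization (0.45, 0.06 and 0.48) or with slide as a random block (0.80, 0.72 and 0.72, adjusted p 0.1, 0.0566 and 0.0573). MiR-431 was lower at 24 h (means of 3.03 and 3.90, adjusted p 0.000825) and at 7d (3.17 and 4.04, adjusted p 0.000754), with no IR array detecting it at either time. Its differences with brightness as a covariate were -0.24 and -0.11 (adjusted p 0.59 and 0.813), and with normexp it was called higher (1.16 and 1.58). The mean log2 processed signal gave 0.43 (adjusted p 0.126) and 0.57 (adjusted p 0.0474). MiR-136 passed at no time. Of its partner strand and that of miR-543, the 2 partner strands that could be tested, miR-136* was called lower at 7d (means of 2.96 after IR and 4.03 in sham control, adjusted p 5.34e-07, no IR array detecting it) and miR-543* at no time.

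At 24 h 13 of the 19 members passed the adjusted p whatever the fold (68.4%, against 60.4% of all 159), at 48 h 12 (63.2%, against 54.7%) and at 7d 14 (73.7%, against 59.7%). At 0 h 4 passed (21.1%, against 12.6%) and at 2 h 2 (10.5%, against 7.55%). The shares of all tested miRs were thus also high at the later times, and nothing is called particular to the cluster from these counts.

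Whether the effect of IR changed with time was tested as the difference between the effect at a later time point and that at 0 h. At 2 h and 24 h no member passed the adjusted p in limma (0.629% and 6.29% of all 159 did), and 0 and 2 members had an unadjusted p under 0.05. The effect at 48 h on miR-434 (-0.48 ± 0.124, adjusted p 0.00628) and miR-127 (-0.55 ± 0.176, adjusted p 0.0225) was below that at 0 h, 10.5% of the 19 beside 12.6% of all 159. Both changes include sham control replicate 1 at 48 h. Without that array the difference at 48 h was -0.42 in place of -0.62 for miR-127, and -0.56 in place of -0.47 for miR-434. At 7d the effect was lower than at 0 h for 8 members (42.1%, beside 25.8%), namely miR-300-3p, miR-341, miR-376a, miR-379, miR-382, miR-410, miR-434 and miR-495. MiR-376a, miR-379, miR-410 and miR-495 were detected on no IR array at 7d, so the size of their change was not measured. Over all times 9 members passed in this test, and 0 did with normexp, 2 with the percentile over all miRs and 3 with brightness as a covariate. For miR-493 and miR-539 no change of the effect with time passed. With slide as a random block miR-127 and miR-434 alone passed. No member differed between 24 h and 7d by the adjusted p (3.14% of all 159 did), where 4 had an unadjusted p under 0.05.

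Between the sham control groups none of the 19 was called in limma between 0 h and any later time (0 of all 159 as well). MiR-154 passed the adjusted p without the 2-fold change at 7d (-0.37, adjusted p 0.0426), as did the partner strand miR-136* (0.50, adjusted p 0.0472). The members at an unadjusted p under 0.05 numbered 0 at 2 h and 2 each at 24 h, 48 h and 7d.

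The remaining 11 detected members were not tested, since in no group did all 6 arrays detect them. MiR-758 was detected on 25 arrays, 19 of them sham control, miR-409-3p on 19, miR-433 on 18, miR-376b-3p on 14, 13 of them sham control, and miR-485 on 13. The other 6, among them the dendrite regulator miR-134 on 1 array, were detected on 8 arrays or fewer, all of them sham control arrays. The signals of miR-485 were weak, and on 5 of the 6 sham control arrays at 2 h and on all arrays of the other groups they lay at the floor. At 7d miR-376b-3p, the relative of miR-376a printed above, was at the floor on all 6 IR arrays and at 3.38 to 3.94 on the sham control arrays, 4 of which detected it.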

How the data were processed

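Total RNA (100 ng per retina) was labelled with Cy3 and hybridised to 1-colour Agilent rat miRNA arrays. The deposited scanner files, made by the authors with Feature Extraction 9.5.3.1, hold intensity values and a detection flag for each miR, with probe positions on rn4. The authors' table holds log2 values of 219 features, 25 of them members. All 12600 of its values equalled the log2 total signal of the scanner files minus 1 constant per array (tolerance 0.001), and its column medians lay between -0.856 and -0.409.

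The total signal of each rat miR was scaled to the 75th percentile of the 57 miRs detected on all 60 arrays, raised to a floor of 7.36 units and log2-transformed. The 159 miRs detected on all 6 arrays of a group were tested in 1 limma fit (3.58.1, R 4.3.3) over 10 groups, with Benjamini-Hochberg adjustment over all 159. Each array is 1 rat, and p-values measure the spread between arrays, in which rat, labelling and slide are not separated. In groups with every value at the floor, the floor sets the spread. A member was described in full if called, named by the study or detected on all arrays. Where no array of a group detected a member, a fold was given only as a bound from the limit of detection, and log2 differences printed for such groups compare values below detection. The number of arrays limits the precision. No 2 arrays were identical. Alternatives covered background correction, normalization, floor, filter, blocks, brightness, an exact permutation test, the deposited log2 table and leaving out each array. The members, lists and tests were chosen with earlier results of these data known.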

Additional observations from a re-analysis of the deposited data

Results flagged for a closer look

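In 12 of 84 sets of 6 values without floor values, 1 array lay apart from the other 5 by Dixon's criterion, where chance gives about 1 in 20. Some of these came from sham control replicate 1 at 48 h, the array that stood furthest from its group. On the log2 scale, miR-494 was 9.19 there (others 4.25 to 5.45), miR-539 6.94 (4.71 to 5.26), miR-495 3.01 (4.08 to 4.45) and miR-329 3.73 (4.57 to 4.93). MiR-493 was 3.60 in IR replicate 1 at 0 h (5.89 to 7.21), and miR-539 was 5.47 in sham control replicate 1 at 24 h (4.77 to 4.94). MiR-495 was 3.52 in IR replicate 5 at 2 h (3.98 to 4.13). MiR-341 was 5.34 in sham control replicate 3 at 2 h (4.86 to 5.03) and 5.21 in sham control replicate 6 at 24 h (4.50 to 4.76). MiR-410 was 4.90 in IR replicate 4 at 0 h (5.56 to 5.78), 5.89 in sham control replicate 6 at 24 h (5.69 to 5.76) and 5.97 in sham control replicate 5 at 7d (5.60 to 5.72).

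The effect of IR differed from that at 0 h by limma's adjusted p in 10 cases. At 48 h the change of the effect was -0.55 for miR-127 and -0.48 for miR-434, with sham control replicate 1 included. At 7d it was -0.62 for miR-300-3p, -1.09 for miR-341, -1.01 for miR-376a, -1.13 for miR-379, -1.14 for miR-382, -0.70 for miR-410, -0.44 for miR-434 and -0.96 for miR-495. The values of miR-376a, miR-379, miR-410 and miR-495 compare levels below detection on the IR arrays at 7d.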

How the results depend on the processing

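Of the 20 called differences of members, all 20 stayed called with the 75th percentile over all miRs, a floor of 1 unit, all miRs or miRs detected on at least 6 arrays tested, the arrays of 1 time point alone, the replicate block, slide or scan as a block, and the deposited table. In time order the called members numbered 2, 1, 5, 4 and 8. They numbered 4, 0, 11, 10 and 17 with normexp, 0 at each time with the highest detection limit as floor or with only miRs detected on all arrays, and 13 at 0 h and 17 at each of 24 h, 48 h and 7d without normalization. The highest limit, 6.75 on the log2 scale, lies above most values of the called members. MiR-434, which is not one of them, is the only member detected on all arrays. Neither 0 therefore tests the calls. The mean log2 processed signal gave 2 at 2 h, 3 at 24 h, 7 at 48 h and 5 at 7d, the values of the authors 6 at 0 h, 10 at 24 h, 8 at 48 h and 14 at 7d, quantile normalization 11 and a floor of 1 unit 8 at 24 h, brightness as a covariate 3 at 24 h and 1 at 7d, and the exact permutation test (smallest p 0.00216) 1 at 0 h, 0 at 2 h and 7 at 7d. The mean log2 processed signal kept 5 of the 11 falls and all 9 rises. Members whose effect differed from that at 0 h numbered 9, and 0 with normexp, 2 with the percentile over all miRs, quantile normalization, the highest floor or slide, 16 without normalization, 1 among miRs detected on all arrays and 3 with brightness. Leaving out 1 array gave 2 to 3, 1 to 2, 4 to 6, 4 to 5 and 7 to 10 called members and 5 to 10 changed effects, and 230 of 240 such calls were kept with 0 signs turned. With normexp the difference turned to 1.04, 1.08 and 1.39 for miR-376a and 1.01, 0.93 and 1.30 for miR-379 (24 h, 48 h, 7d), to 1.12 and 1.51 for miR-495 (24 h, 7d), and at 7d to 1.53 for miR-323, 1.41 for miR-341, 1.37 for miR-494, 1.10 for miR-410, 1.48 for miR-329 and 1.57 for miR-136*. It turned to 0.22 and 0.46 for miR-434 and 0.19 and 0.56 for miR-127 (48 h, 7d). The offset of normexp can lift weak signals on dim arrays, so these turns do not decide the direction. Without normalization miR-539 turned to -0.86 at 7d and miR-382 to -0.17 at 0 h. The cause was not tested. The percentile over all miRs moved the median difference of all tested miRs to -0.289, -0.046, -0.424, -0.292 and -0.347. Replicate numbers were not used to pair the arrays (15 of 30 same-numbered pairs correlated above 0.1, median 0.11, range -0.45 to 0.60), and the replicate block gave 2, 1, 5, 4 and 8 called members. Pairs of different numbers were not compared with these, so pairing was not tested. The dim IR arrays at 24 h and 7d limit all falls.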
